A study of Homo sapiens with 8 samples.

Results

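The genes followed here are known from epithelial and luminal breast cells and were measured in a breast cancer line of mesenchymal character. They are the keratin genes KRT7, KRT8, KRT18 and KRT19, the claudin genes CLDN7 and CLDN4, the transcription factor genes GATA3 and SPDEF, and AGR2 and TFF1, which encode a disulfide isomerase of the secretory pathway and a secreted trefoil peptide. They were taken by name from the deposited tables, and all 10 were found among the 16383 genes of the count table. The cells were MDA-MB-231, an established human line from a triple-negative breast cancer, kept in DMEM with 10% serum. They received 5 µM c-di-GMP, a bacterial cyclic dinucleotide that the innate immune adaptor STING binds, or 1×PBS as the vehicle, for 24 h, and 4 libraries of total RNA were sequenced per group. The series title names metastasis and PSMD3, a proteasome subunit. Separate cultures behind the replicates are not named in the labels. Every p-value thus sets the difference between the groups against the spread among these libraries, a spread that may be technical.

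Keratins form the intermediate filaments of epithelial cells as pairs of one type I and one type II chain, and KRT8 with KRT18 is the pair of simple epithelia. Claudins are the membrane proteins that seal tight junctions, and low claudin levels are a known trait of MDA-MB-231. GATA3 specifies and maintains luminal cells of the mammary gland, and SPDEF is an ETS-family factor of luminal and secretory cells. AGR2 and TFF1 are known as oestrogen-responsive genes in luminal breast cancer, while triple-negative lines such as this one are defined by the lack of the oestrogen receptor.

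Library totals ran from 16151360 to 18040010 counts, at which 3 counts amount to 0.166 to 0.186 CPM, the counts scaled by library size, a floor for counting error only. Vehicle replicate 3 stood apart: 465 of the listed genes were at 0 in it, against 2 to 9 in each other library, and its counts made up 146% of the total behind its deposited FPKM values, against 92.4 to 94.4% elsewhere. The biological coefficient of variation that edgeR estimated was 36.3% over all 8 libraries and 4.52% over the 7 without that library. Results on the 10 genes are therefore given for the 8 and for the 7 libraries. Between these 7 libraries the fold changes of all genes fell with the GC content of their transcripts, so a fit with that trend removed from each library stands beside them.

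The 4 keratin genes were among the most abundant transcripts of the line, so the word residual does not describe them. On the deposited FPKM scale, which divides by gene length, KRT19 stood at 154 ± 10.2 (SD, n = 3) in the 3 other vehicle libraries and at 133 ± 3.33 (SD, n = 4) with c-di-GMP. That level was above 99.0% of the listed genes. The FPKM of KRT8 was 97.2 ± 2.92 with vehicle and 96.1 ± 0.976 with c-di-GMP, that of KRT7 was 94.0 ± 4.57 and 85.3 ± 1.92, and that of KRT18 was 79.3 ± 3.14 and 85.6 ± 0.778. Each of these 3 keratins exceeded at least 97.6% of the listed genes. VIM, the mesenchymal intermediate filament gene, ranged from 116 to 148 FPKM in the same 7 libraries, within the span of the keratins on this scale.

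SPDEF followed at an FPKM of 38.7 ± 4.81 with vehicle, above 92.7% of the listed genes. CLDN4 at 24.0 ± 0.838 and CLDN7 at 19.2 ± 1.03 came next, above 88.2% and 82.8% of the listed genes, so neither was low among them. AGR2 at 4.98 ± 0.363 and GATA3 at 3.86 ± 0.0987 lay near the middle of the listed genes, above 59.5% and 46.7% of them. TFF1 was the lowest of the 10 at 0.919 ± 0.183 FPKM, and rested on 8 to 12 counts in each of these vehicle libraries. In the order of levels, the ranges over the 7 libraries overlapped between KRT8 and KRT7, between KRT7 and KRT18, and between GATA3 and TFF1, and no other neighbours overlapped. KRT7 exceeded KRT18 in 5 of the 7 libraries. Dividing by the longest transcript in place of all exons kept the order of the 10 genes in their mean over the 7 libraries. With c-di-GMP alone KRT8 then exceeded KRT19, at 245 against 238 CPM per kilobase, and the mean of VIM, 276, lay above those of all 4 keratins. The check of the line gave CDH1, the E-cadherin gene, at 0.299 to 0.628 FPKM and EPCAM, an epithelial adhesion gene, at 4.36 to 5.94 FPKM in the 7 libraries, so that E-cadherin transcripts were scarce beside abundant keratin transcripts. Basal keratin genes KRT5 and KRT14 and the receptor genes ESR1 and PGR were looked up and were not among the listed genes. No level can therefore be given for them.

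**Figure D1:**
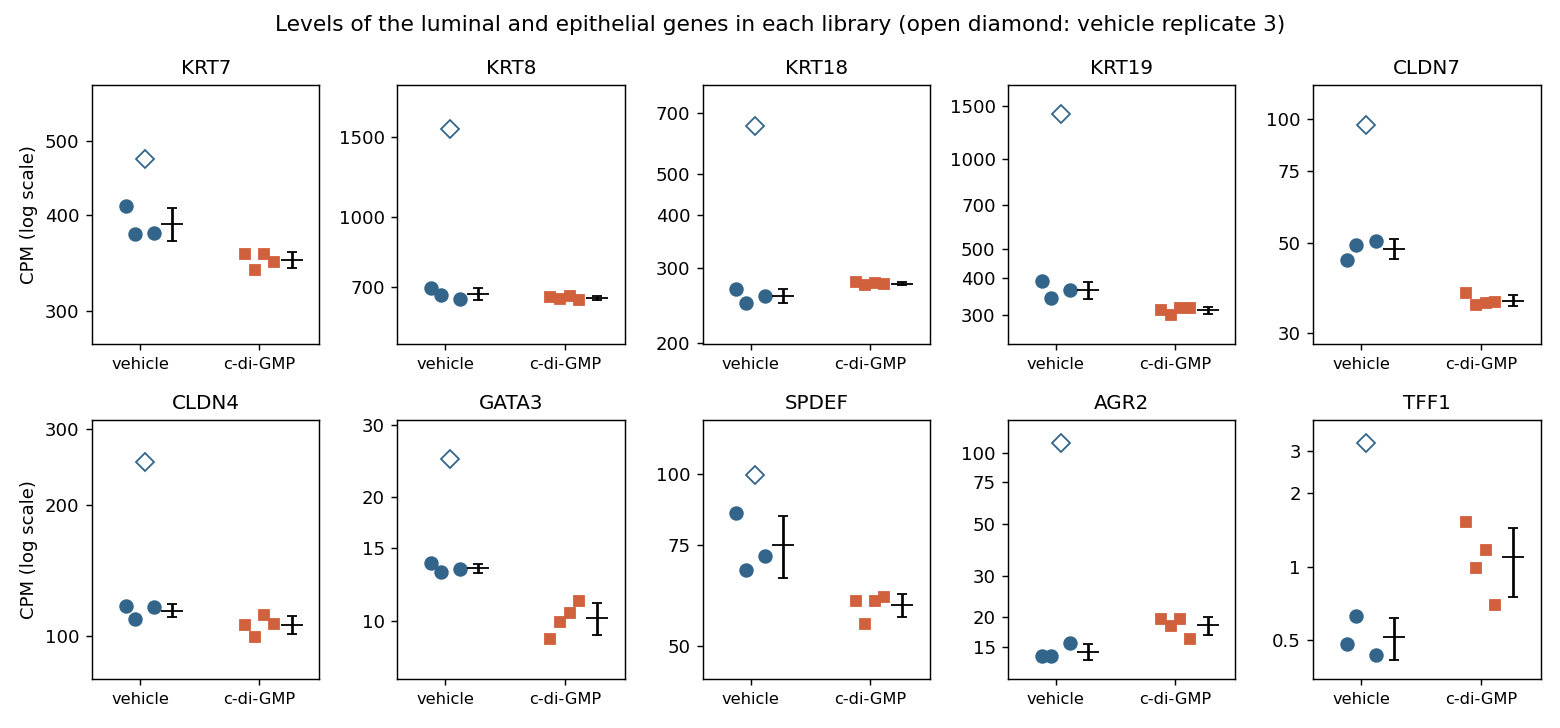
Levels of the 10 genes in each library, in CPM scaled over all 8 libraries by the trimmed mean of M-values and drawn on log axes that differ between panels. Circles are vehicle replicates 1, 2 and 4, open diamonds are vehicle replicate 3, squares are c-di-GMP libraries, and the bars give mean and SD without vehicle replicate 3. In every panel the open diamond is the highest point.

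With all 8 libraries, none of the 10 genes passed the test (edgeR quasi-likelihood F test, Benjamini-Hochberg adjusted p under 0.05), where the percentage of all 15415 genes called was 0. All 10 estimates were below zero with c-di-GMP, with a median log2 fold change of -0.48 against -0.05 over all genes tested. At an unadjusted p under 0.05 there were 3 of the 10, CLDN7, GATA3 and SPDEF, against 960 of all genes (6.23%), and limma-voom also called 0 genes while 837 (5.43%) had such a p. DESeq2 called 134 genes (0.869%), none of the 10 among them, though it gave no adjusted p for AGR2 and TFF1. Limma-voom with library quality weights, which gives less weight to libraries that vary more, called 9 of the 10 with all 8 libraries. It called 3 higher and 6 lower, against 17.1% of all genes higher and 18.2% lower, a fit chosen after seeing the data. In 5 genes, KRT7, KRT19, CLDN7, GATA3 and SPDEF, all c-di-GMP libraries lay below all vehicle libraries, which held for 7.29% of all genes tested. Without the scaling factors KRT7 left that group and 4 remained, where the share of all genes was 4.33%.

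Without vehicle replicate 3, 7 of the 10 genes passed. KRT7, KRT19, CLDN7, GATA3 and SPDEF fell, and AGR2 and TFF1 rose. In these bulk libraries, fewer cells with a transcript and less of it per cell cannot be told apart. Over all 15647 genes tested the same fit called 29.6%, with 13.5% higher and 16.2% lower. The 10 genes had a median log2 fold change of -0.14, against 0.0014 over all genes. With the GC trend removed 6 of the 10 passed where the fit called 15.2% of all genes, 8.58% higher and 6.62% lower. CLDN7 and GATA3 were then lower, KRT7, KRT18, AGR2 and TFF1 higher, and the median of the 10 was 0.06 against -0.0029 over all genes. Only CLDN7, GATA3, AGR2 and TFF1 thus passed in the same direction with and without the correction. Groups of the 7 libraries did not overlap for 8 of the 10 genes before the correction, against 35.7% of all genes, and for 5 after it, against 23.5%. When a length trend was removed as well, 4 of the 10 were higher and 2 lower, against 7.66% and 5.74% of all genes. DESeq2 on the 7 uncorrected libraries called 1 higher and 5 lower, against 11.9% and 13.9%.

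**Figure D2:**
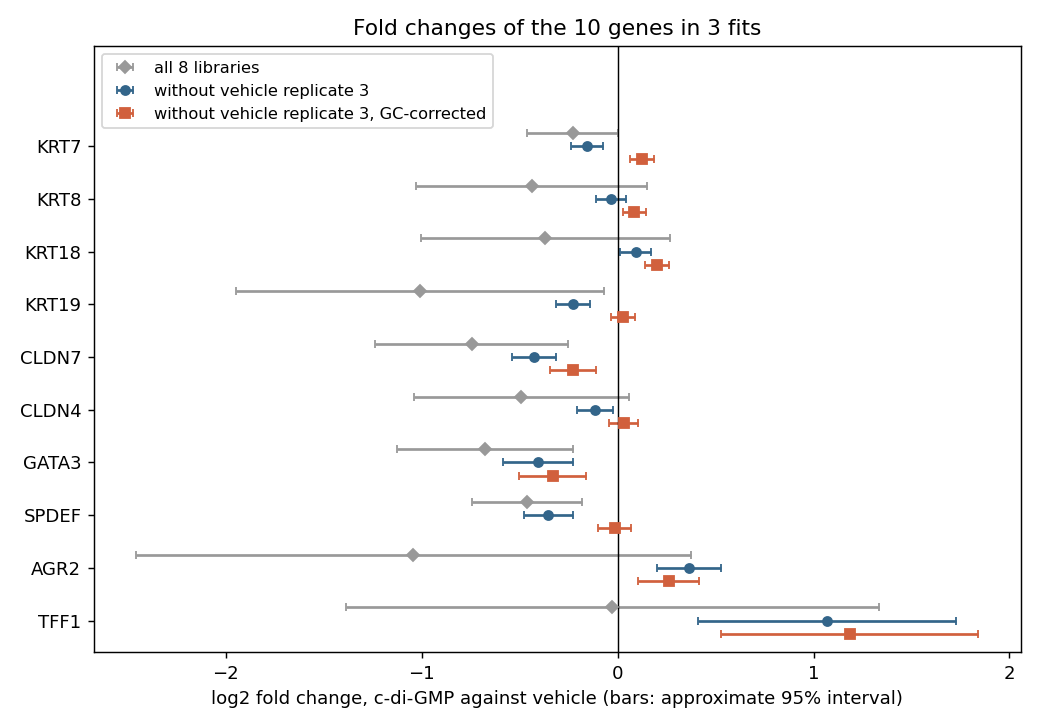
Log2 fold changes of c-di-GMP against vehicle for the 10 genes in 3 fits, with bars for the approximate 95% interval. Grey diamonds are all 8 libraries, blue circles the 7 without vehicle replicate 3, and orange squares the same 7 with the GC trend removed. CLDN7 and GATA3 lie left of zero in all 3 fits, and AGR2 moves from -1.04 to 0.37 when vehicle replicate 3 is left out.

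Upstream sequences are shown for the 3 genes that kept their call with the correction and were matched in the RefSeq promoter table, CLDN7, GATA3 and AGR2, and for SPDEF, which lost it. The table matched 6 of the 10 genes, and the stretches were kept to the 150 bases before the RefSeq start and clear of annotated exons of the same gene (GRCh38.p14, 5′ to 3′ on the strand of the gene). They are CLDN7 at chr17:7263214-7263363 (minus strand), GATA3 at chr10:8045183-8045332 (plus strand), AGR2 at chr7:16805081-16805149 (minus strand) and SPDEF at chr6:34556334-34556479 (minus strand). Those of CLDN7 and AGR2 lie within the annotated span of their gene, and so not before its outermost annotated start. For GATA3 the first bases after the RefSeq start were not found in the annotated transcripts. Capitals mark the only searched motif found in these stretches.
CLDN7: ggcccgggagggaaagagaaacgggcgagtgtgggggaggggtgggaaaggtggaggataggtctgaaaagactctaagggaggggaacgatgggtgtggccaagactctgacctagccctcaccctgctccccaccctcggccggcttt
GATA3: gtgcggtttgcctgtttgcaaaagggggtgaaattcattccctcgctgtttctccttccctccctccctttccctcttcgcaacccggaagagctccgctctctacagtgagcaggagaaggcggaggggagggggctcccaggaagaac
AGR2: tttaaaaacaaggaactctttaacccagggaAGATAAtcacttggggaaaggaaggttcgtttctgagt
SPDEF: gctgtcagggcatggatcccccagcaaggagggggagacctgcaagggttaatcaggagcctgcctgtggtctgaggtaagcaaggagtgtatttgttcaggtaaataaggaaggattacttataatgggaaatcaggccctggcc
The capitals in AGR2 are AGATAA, a motif of GATA factors, 119 to 114 bases before the start, which 5.17% of all 35116 promoters hold on one strand or the other in the same 150 bases. Of the other motifs searched on both strands, GGGCGG was found in CLDN4 alone of the 6 matched genes and in 36.8% of all promoters. TATAAA (6.71% of promoters), CAGGTG, the E-box of Snail and ZEB factors (10.6%), TGTTTAC of forkhead factors (1.73%) and the palindromic oestrogen response element, GGTCA and TGACC with 3 bases between (0.0313%), were found in none of the 6. A match describes letters in this window and is not a site of binding.

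Among the keratins, KRT19 and KRT7 fell without vehicle replicate 3 while KRT8 and KRT18 did not pass, and the GC correction changed this split. KRT19, a type I keratin that lacks the usual tail domain, lies on chromosome 17 (41523617 to 41528308, minus strand, GRCh38). Vehicle replicates 1, 2 and 4 held 390.0, 341.9 and 363 CPM of it and vehicle replicate 3 held 1416 CPM, while the c-di-GMP libraries held 314, 300.04, 318 and 316 CPM. Every c-di-GMP library lay below every vehicle library. Its mean in CPM was 365 ± 24.1 (SD, n = 3) without and 312 ± 8.24 (SD, n = 4) with the compound, a log2 fold change of -0.23 ± 0.04 (SE) with an edgeR adjusted p of 0.00041. With the GC trend removed it was 0.03 ± 0.03 (adjusted p = 0.657), and with all 8 libraries it was -1.01 ± 0.48 (adjusted p = 0.623). The fall of KRT19 was therefore present before and absent after the correction.

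KRT7, a type II keratin of simple and ductal epithelia, lies on chromosome 12 (52232520 to 52252186, plus strand). Its CPM values were 411, 378 and 379 in vehicle replicates 1, 2 and 4, 473 in vehicle replicate 3, and 357, 339.7, 356 and 347 with c-di-GMP. Here too the groups did not overlap. Its log2 fold change over the 7 libraries was -0.16 ± 0.04 (adjusted p = 0.0056), and it became 0.13 ± 0.03 with the GC trend removed (adjusted p = 0.0064), a call in the opposite direction. On the corrected scale the vehicle libraries held 358 to 378 CPM and the c-di-GMP libraries 397 to 404 CPM. Reads of KRT7 and its antisense gene KRT7-AS cannot be told apart where their exons share 282 bases, 6.89% of the exon bases of KRT7, if the counting did not use strand.

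Before the correction KRT8 and KRT18 had smaller estimates than KRT7 and KRT19, and after it KRT18 had the largest of the 4. KRT8, on chromosome 12 (52897187 to 52949954, minus strand), had CPM values of 698, 672 and 659.5 for vehicle replicates 1, 2 and 4, 1565 for vehicle replicate 3, and 665, 661, 669 and 655 for the c-di-GMP libraries. The groups overlapped. Its log2 fold change over the 7 libraries was -0.03 ± 0.04, with an approximate 95% interval from -0.11 to 0.04 (adjusted p = 0.563), and 0.09 ± 0.03 after the correction (adjusted p = 0.0536). KRT18, on chromosome 12 (52948871 to 52952901, plus strand), had 269, 248 and 258 CPM in the same 3 vehicle libraries, 651 CPM in vehicle replicate 3, and 279, 273, 276 and 275 CPM in the c-di-GMP libraries. Without vehicle replicate 3 all its c-di-GMP values were above all vehicle values, with an SD of 2.39 CPM among them (n = 4). The log2 fold change of KRT18 was 0.09 ± 0.04 (adjusted p = 0.0959), passed without vehicle replicate 1 (0.12, adjusted p = 0.0127), and was 0.20 ± 0.03 after the correction (adjusted p = 5.14e-05). KRT8 and KRT18 overlap on opposite strands by 525 exon bases, 16.3% of the exon bases of KRT18, and reads there are uncertain because the use of strand was not stated. Both have many pseudogenes. The 4 listed KRT8 pseudogenes held 0.787 to 0.955% of the counts of KRT8 in the 7 libraries, and the listed KRT18 pseudogene 0.0841 to 0.240% of those of KRT18.

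The make-up of the keratin transcripts differed between the groups in a way that does not depend on the scaling between libraries. Of the summed FPKM of the 4 keratins, KRT19 took 35.4 to 36.9% in vehicle replicates 1, 2 and 4, 52.7% in vehicle replicate 3, and 32.7 to 33.8% with c-di-GMP. KRT18 took 17.6 to 18.9% in the 4 vehicle libraries and 21.1 to 21.6% with c-di-GMP. Thus the share of KRT19 was lower and that of KRT18 higher in every c-di-GMP library than in any vehicle library, vehicle replicate 3 included. The FPKM ratio of KRT19 to KRT18 was 2.00, 1.90, 3.00 and 1.94 in vehicle replicates 1 to 4, and 1.55, 1.51, 1.59 and 1.59 with c-di-GMP. KRT8 took 19.8 to 23.6% with vehicle and 23.8 to 24.5% with c-di-GMP, and KRT7 21.8 to 22.3% in the 3 vehicle libraries, 10.0% in vehicle replicate 3 and 21.1 to 21.5% with c-di-GMP. The shares and ratios were described with no test, and how often other sets of genes separate in this way was not counted. Of single genes, 35.7% had CPM values that did not overlap between the groups of the 7 libraries. GC made up 61.8% of the longest transcript of KRT19 and 62.9% of that of KRT7, against 55.7% for KRT18 and 56.2% for KRT8, and its part in these shares was not tested.

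**Figure D3:**
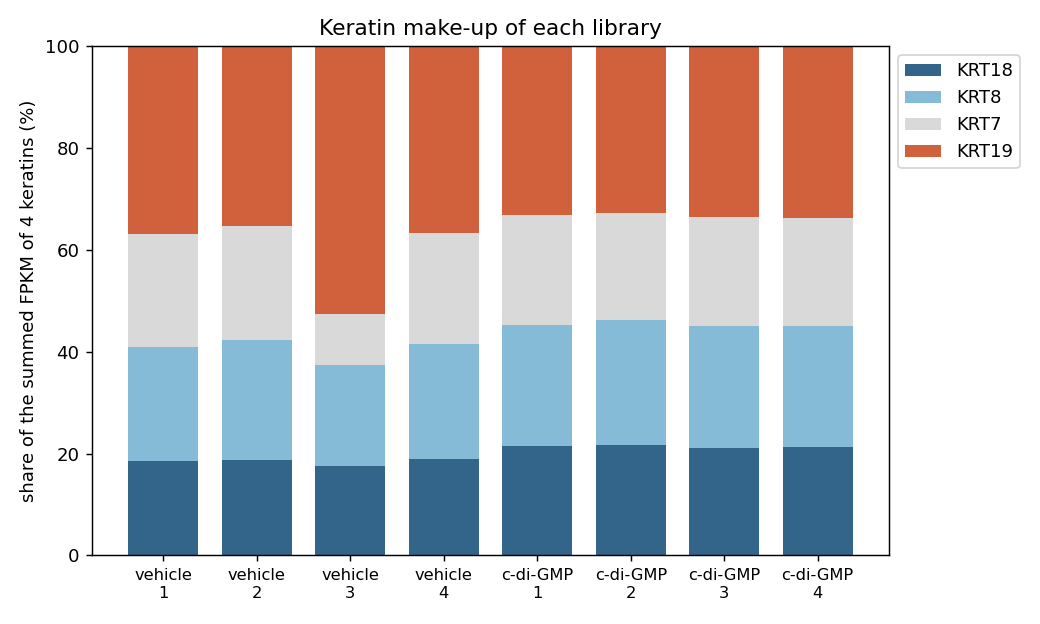
Share of each keratin in the summed FPKM of KRT7, KRT8, KRT18 and KRT19, in percent, for each of the 8 libraries. KRT19 takes 32.7 to 33.8% in the c-di-GMP libraries and 35.4% or more in the vehicle libraries, with 52.7% in vehicle replicate 3.

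CLDN7 fell without vehicle replicate 3, with the lowest estimate of the 10 genes before the GC correction, while GATA3 had the lowest after it. CLDN4 did not pass in either fit. Both encode claudins of simple epithelia. CLDN7, on chromosome 17 (7259903 to 7263983, minus strand), had CPM values of 45.3, 49.3 and 50.3 for vehicle replicates 1, 2 and 4, 97.2 for vehicle replicate 3, and 37.6, 35.3, 35.6 and 35.8 for the c-di-GMP libraries. No c-di-GMP library reached a vehicle library. Means in CPM were 48.3 ± 2.62 (SD, n = 3) and 36.1 ± 1.06 (SD, n = 4), and the log2 fold change was -0.43 ± 0.06 (adjusted p = 5.57e-06). After the GC correction it was -0.23 ± 0.06 (adjusted p = 0.0091). That corrected call was lost without vehicle replicate 2 (-0.18, adjusted p = 0.0515) and without vehicle replicate 4 (-0.18, adjusted p = 0.0925). On the corrected scale vehicle replicate 1, at 41.5 CPM, fell among the c-di-GMP libraries, which held 39.4 to 41.8 CPM. With all 8 libraries the log2 fold change was -0.75 ± 0.25 (adjusted p = 0.623). CLDN7 shares 269 exon bases with AC003688.1 on the same strand, and 38 with ELP5 on the other, so some of its reads are uncertain.

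CLDN4, on chromosome 7 (73799542 to 73832693, plus strand), had 117, 109.5 and 116 CPM for vehicle replicates 1, 2 and 4, 252 CPM for vehicle replicate 3, and 106, 99.3, 112 and 106 CPM for the c-di-GMP libraries. One c-di-GMP value lay above the lowest vehicle value. The log2 fold change over the 7 libraries was -0.12 ± 0.05 with an interval from -0.21 to -0.02 (adjusted p = 0.0636), and 0.03 ± 0.04 after the correction (adjusted p = 0.659). The call was gained without vehicle replicate 2 (adjusted p = 0.0265) or c-di-GMP replicate 3 (adjusted p = 0.0406). The FPKM ratio of CLDN7 to CLDN4, which needs no scaling between libraries, was 0.732, 0.849, 0.727 and 0.816 in vehicle replicates 1 to 4 and 0.672, 0.670, 0.601 and 0.636 with c-di-GMP. It was lower in all 4 c-di-GMP libraries than in all 4 vehicle libraries. GC made up 59.6% of the longest transcript of CLDN7 and 57.5% of that of CLDN4, and its part in this ratio was not tested. How often other pairs of genes separate in this way was not counted.

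GATA3, on chromosome 10 (8045378 to 8075203, plus strand), fell without vehicle replicate 3 with and without the correction. Its CPM values were 13.8, 13.1 and 13.4 for vehicle replicates 1, 2 and 4, 24.7 for vehicle replicate 3, and 9.01, 9.90, 10.4 and 11.2 for the c-di-GMP libraries, from 154 to 276 counts each. All c-di-GMP libraries lay below all vehicle libraries, also with vehicle replicate 3. Means in CPM were 13.4 ± 0.343 (SD, n = 3) and 10.1 ± 0.906 (SD, n = 4). The log2 fold change was -0.41 ± 0.09 (adjusted p = 0.0015), -0.33 ± 0.09 after the correction (adjusted p = 0.0099), and -0.68 ± 0.23 with all 8 libraries (adjusted p = 0.623). Among all 10 genes, GATA3 alone kept non-overlapping groups below vehicle after the correction, at 13.6 to 14.0 CPM with vehicle and 9.72 to 12.1 CPM with c-di-GMP, where 10.6% of all genes lay wholly lower. Leaving out any one of the 7 libraries kept its call in both fits.

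SPDEF, on chromosome 6 (34537802 to 34556333, minus strand), fell before the correction only. Its CPM values were 85.4, 67.7 and 71.7 in vehicle replicates 1, 2 and 4, 99.4 in vehicle replicate 3, and 59.9, 54.6, 59.9 and 60.7 with c-di-GMP. The groups did not overlap, and vehicle replicate 1 was the highest of the 7. The log2 fold change was -0.35 ± 0.06 (adjusted p = 0.00017), and -0.02 ± 0.04 after the correction (adjusted p = 0.856). On the corrected scale all 7 libraries held between 65.0 and 71.4 CPM apart from vehicle replicate 1 at 72.2 CPM, so the groups overlapped. SPDEF has the highest GC content of the 10 genes, 64.6%, and in the 1625 genes of 60 to 65% the median log2 fold change was -0.28.

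**Figure D4:**
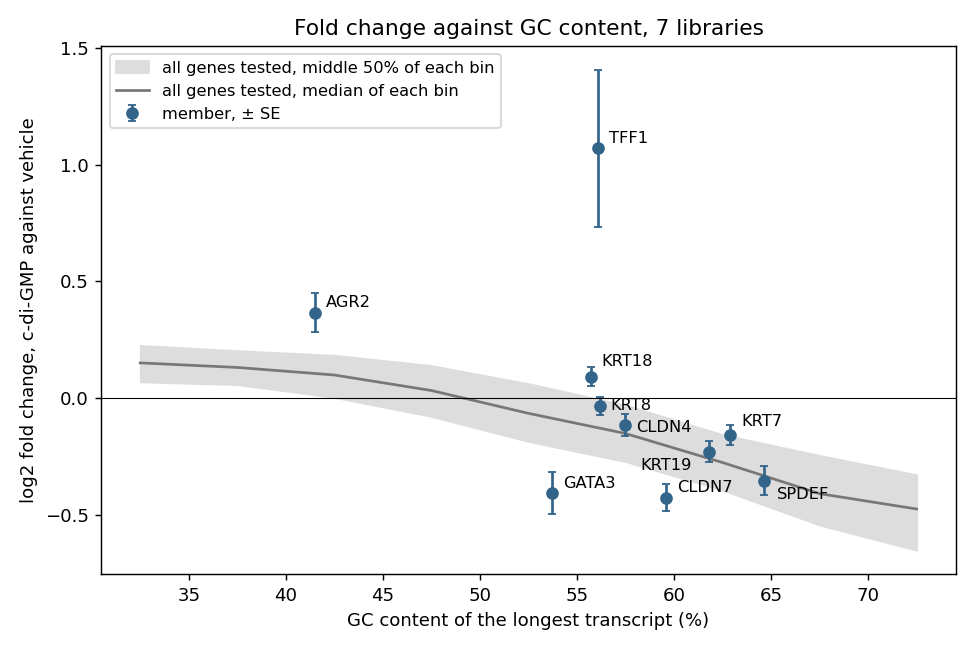
Log2 fold change over the 7 libraries against the GC content of the longest transcript in percent. The line and band are the median and the middle 50% of all genes tested per bin of 5 percentage points, and points with bars are the 10 genes with their standard errors. KRT19, KRT8, CLDN4 and SPDEF lie within the band, KRT7 at its upper edge, CLDN7 and GATA3 below it, and AGR2, TFF1 and KRT18 above it.

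AGR2 and TFF1 rose in the 7 libraries and were also the genes that vehicle replicate 3 raised most. AGR2, on chromosome 7 (16791811 to 16833433, minus strand), had CPM values of 13.7, 13.7 and 15.6 for vehicle replicates 1, 2 and 4, 110.2 for vehicle replicate 3, and 19.7, 18.5, 19.7 and 16.3 for the c-di-GMP libraries. Vehicle replicate 3 exceeded every c-di-GMP library, and each other vehicle library lay below them all. The log2 fold change was 0.37 ± 0.08 without that library (adjusted p = 0.0018) and -1.04 ± 0.72 with it (adjusted p = 0.628), so 1 library set its direction. After the correction it was 0.26 ± 0.08 (adjusted p = 0.0279), and that call was lost without vehicle replicate 1 (adjusted p = 0.0716), vehicle replicate 2 (0.119), c-di-GMP replicate 1 (0.0884) or c-di-GMP replicate 3 (0.0953). Its transcript has the lowest GC content of the 10, 41.5%, in a bin of 40 to 45% whose median log2 fold change was 0.10.

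TFF1, on chromosome 21 (42362282 to 42366594, minus strand), was counted 9, 12 and 8 times in vehicle replicates 1, 2 and 4, 36 times in vehicle replicate 3, and 26, 18, 22 and 13 times with c-di-GMP. The counts are small, and vehicle replicate 3 again had the most. In CPM these were 0.481, 0.626, 0.431 and 3.22 with vehicle in the order 1, 2, 4 and 3, and 1.52, 0.984, 1.17 and 0.698 with c-di-GMP. The log2 fold change was 1.07 ± 0.34 without vehicle replicate 3 (adjusted p = 0.0179), 1.19 ± 0.33 after the correction (adjusted p = 0.0157), and -0.03 ± 0.69 with all 8 libraries (adjusted p = 0.993). The call over 7 libraries was lost without vehicle replicate 1 (adjusted p = 0.0602), vehicle replicate 4 (0.0708) or c-di-GMP replicate 1 (0.071). The corrected call was lost without the same libraries (adjusted p = 0.0718, 0.0757 and 0.0655).

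All 10 genes were highest in vehicle replicate 3, but by unequal amounts. Relative to the mean of the other vehicle libraries, AGR2 was 7.69-fold, TFF1 6.28-fold and KRT19 3.88-fold as high there. KRT18, KRT8, CLDN4, CLDN7 and GATA3 were 2.52-fold, 2.31-fold, 2.21-fold, 2.01-fold and 1.84-fold as high, and SPDEF and KRT7 1.33-fold and 1.21-fold. A ratio as high as that of AGR2 was found in 3.12% of all genes, that of KRT19 in 9.13%, and that of KRT7 in 40.3%. Without the scaling factors the ratios of KRT7 and SPDEF turned to 0.759 and 0.830, so their direction depended on the scaling, and those of the other 8 ran from 1.15 to 4.81. Genes whose pattern over the 8 libraries came closest to KRT19, by the root mean square difference of centred log2 CPM among 9563 protein-coding genes, were MIIP (0.043), IGFBP4 (0.0434) and HSPB1 (0.0471). For KRT7 they were UNC45A (0.0172), STX4 (0.0284) and NRSN2 (0.0288), for KRT8 HTRA1 (0.0307), WDR74 (0.0377) and CTDNEP1 (0.0403), and for KRT18 ABHD14B (0.0367), PTP4A2 (0.0386) and YRDC (0.0392). For AGR2 they were MCTS1 (0.0892), MYCBP (0.0907) and LRR1 (0.101), which were farther from it than the nearest genes of the keratins were from theirs. Without vehicle replicate 3 the nearest genes were others, such as CTDSP1 (0.0095) for KRT19, TUBB4B (0.0083) for KRT8 and EVI2B (0.055) for AGR2, and of the 15 named over 8 libraries only UNC45A, for KRT7, was also named over 7.

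Other genes of the same groups were counted in the fit over the 7 libraries, and none passed with all 8. That fit called 13.5% of all genes higher and 16.2% lower, and 8.58% and 6.62% after the GC correction, and with lists this short the counts are descriptions that set no list apart from all genes. Of 20 further tight junction genes tested, 5 fell and none rose, with a median log2 fold change of -0.14. They included CLDN3, the claudin often lost together with CLDN4 and CLDN7 in claudin-low lines (-0.65 ± 0.21, adjusted p = 0.0196), CLDN23 (-0.44 ± 0.11, 0.0047) and the tricellular junction gene LSR (-0.23 ± 0.06, 0.0035). After the correction none of these 3 passed (adjusted p = 0.598, 0.194 and 0.213), and 2 others were lower, the polarity genes PARD6B (-0.23, adjusted p = 0.0028) and PATJ (-0.20, 0.0323). Of 15 adherens junction and desmosome genes tested, 3 rose and 4 fell, and after the correction none was higher and 2 were lower. CDH1 rose by 0.57 ± 0.19 (adjusted p = 0.0298), from 35, 41 and 38 counts in the 3 vehicle libraries to 49, 71, 54 and 44 with c-di-GMP, and did not pass after the correction (0.55, adjusted p = 0.0524). PKP3 and EVPL, which encode desmosomal plaque proteins, fell (-0.38 and -0.37, adjusted p = 0.0002 and 1.82e-05) and did not pass after it. PPL fell (-0.36, adjusted p = 0.0012) and PERP rose (0.21, adjusted p = 0.0016), and neither passed after the correction (adjusted p = 0.126 and 0.0932). With all 8 libraries the estimate for PERP was -0.25. EPCAM stood at 0.14 ± 0.09 (adjusted p = 0.252), and at -0.80 with all 8 libraries. Vehicle replicate 3 lay below all c-di-GMP libraries for EVPL (46.2 against 58.4 to 67.4 CPM), PPL (7.51 against 20.3 to 25.3 CPM) and CLDN23 (4.29 against 5.91 to 6.94 CPM).

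Of 12 further luminal transcription factor and receptor genes tested, 3 fell and 1 rose, and after the correction 4 were lower and none higher. The receptor tyrosine kinase genes ERBB2 and ERBB3 fell by 0.26 and 0.41 on the log2 scale (adjusted p = 0.00028 and 0.00895), and both stayed lower after the correction (-0.11 and -0.37, adjusted p = 0.0327 and 0.0316). For ERBB2, vehicle replicate 3 at 71.1 CPM lay below all c-di-GMP libraries (82.5 to 86.3 CPM). Of 16 further secreted and oestrogen-responsive genes, 1 rose and 1 fell, and after the correction 3 were higher and none lower, CD24, MUC1 (0.37) and CTSD (0.27). CD24, a surface glycoprotein gene of luminal cells, rose (0.29 ± 0.06, adjusted p = 0.0013, and 0.24 ± 0.06, 0.0075 after the correction). With all 8 libraries its estimate was -0.62, as vehicle replicate 3 held 118 CPM against 24.4 to 27.9 CPM in the other vehicle libraries. IGFBP4 fell before the correction only (-0.18, adjusted p = 0.0049). Of 15 epithelial splicing, protease and polarity genes, 2 rose and 7 fell, and after the correction 2 were higher and 3 lower. MAL2, of apical transport, rose (0.38, and 0.26 after it, but -0.32 with all 8 libraries), and MAPK13 and the hemidesmosomal integrin gene ITGB4 fell (-0.27 and -0.42, and -0.22 and -0.11 after it). Vehicle replicate 3 lay below every c-di-GMP library for MAPK13 (68.8 against 115 to 120 CPM) and ITGB4 (92.6 against 199 to 206 CPM). Their estimates with all 8 libraries were -0.07 and -0.16. KRT80 fell (-0.17, adjusted p = 0.00905, but 0.052 with all 8 libraries) as did KRT86, one of 6 basal and hair keratins tested (-0.32, 0.0192), and neither passed after the correction.

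Mesenchymal genes were called in both directions. Of 17 tested, 4 rose and 2 fell over the 7 libraries (median -0.02 on the log2 scale), and after the correction 3 were higher and 4 lower. VIM rose by 0.26 ± 0.04 (adjusted p = 3.24e-05), and by 0.22 after it, CAV1 rose by 0.25 and 0.20, and S100A4 by 0.20 and 0.30, while COL6A1 fell by 0.47 and 0.16 on the log2 scale. AXL was also lower in both fits (-0.17 and -0.09, edgeR adjusted p = 0.0021 and 0.041). FN1 and LOX were lower after the correction only (-0.15 each, adjusted p = 0.014 and 0.046). ZEB1 and SPARC passed in neither fit. With all 8 libraries the estimate for VIM was -0.44, and the level in vehicle replicate 3 was 2198 CPM against 607 to 634 CPM in the other vehicle libraries. That for S100A4 was -1.85, with 4549 CPM in vehicle replicate 3 against 308 to 351 CPM. Of 7 myoepithelial and basal markers tested, ACTA2 rose (0.56, adjusted p = 0.0402) and NGFR fell (-0.41, adjusted p = 3.66e-06), and both kept their call after the correction (0.60 and -0.13). NGFR was lower in vehicle replicate 3 (75.6 CPM) than in any c-di-GMP library (77.8 to 82.6 CPM). PECAM1, an endothelial marker, held 141 to 202 counts in each library.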

How the data were processed

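Human MDA-MB-231 libraries were made with the NEBNext Ultra RNA kit, per the labels' protocols. The authors deposited read counts per gene and FPKM values, and each table lists 16383 genes, 14707 of them in both. The submitters' processing notes name the tools DESeq2 1.20.0, featureCounts 1.5.0-p3, HISAT2 2.0.5, fastp and CASAVA 1.8 without their roles, and a mouse build, but all gene positions equal those of GENCODE v29 (GRCh38). Use of strand is not given in the sources used here. Deposited FPKM values divide by the length of all exons of a gene.

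Counts were filtered with filterByExpr (minimum count 10, total 15), scaled by TMM and tested with edgeR 4.0.16 (R 4.3.3) quasi-likelihood F tests, treatment only, with Benjamini-Hochberg adjustment over all genes and a threshold of 0.05. All 10 genes passed the filter in both fits. Intervals are the log2 fold change ± 1.96 SE. The GC correction entered each library's lowess trend (span 0.3) against the GC share of the longest transcript as an offset. Alternatives were DESeq2 1.42.0, limma-voom (limma 3.58.1), other size factors, filters, log2(FPKM + 0.1) and log2(FPKM + 1), a replicate block, and leaving out each library. A GC and length correction, library quality weights and the corrected fits without each library were added after seeing the data. The scripts were tested on simulated counts, in which all libraries shared a mean profile apart from set fold changes, without a GC trend. Such counts cannot show how the fits behave with that trend or with a library like vehicle replicate 3. Genes named are the 10, up to 4 of each list with the smallest p past the threshold, some checks of the line, and for 5 genes the 3 with the nearest pattern. PARD6B, PATJ, MUC1, CTSD, AXL, FN1, LOX, ZEB1 and SPARC were named after their values were seen. The 10 genes and the lists were chosen with earlier results of these data known.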

Additional observations from a re-analysis of the deposited data

Results flagged for a closer look

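In groups of 4 libraries, a library was listed here when its gap to the nearest other library, divided by the range of the group, exceeded Dixon's 95% critical value. Chance gives such a gap in about 1 of 20 independent groups, and 9 of the 20 groups tested (10 genes, both treatments) had one. These groups are not independent, as the 10 genes were measured in the same libraries. In 8 of the 9 the library listed was vehicle replicate 3, as the highest: KRT8 at 1565 CPM, KRT18 at 651 CPM, KRT19 at 1416 CPM, CLDN7 at 97.2 CPM, CLDN4 at 252 CPM, GATA3 at 24.7 CPM, AGR2 at 110.2 CPM and TFF1 at 3.22 CPM. The gap made up 0.904 of the range for CLDN7 and 0.981 for AGR2, the lowest and highest of the 8. With c-di-GMP, SPDEF was lowest in replicate 2, at 54.6 CPM, where the gap made up 0.861 of the range.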

How the results depend on the processing

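Over the alternatives, 456 values of the 10 genes were compared with their main value: 390 kept direction and call, 27 changed direction, 23 gained and 16 lost a call. With all 8 libraries, 0 genes were called by edgeR, 134 by DESeq2 and 5430 by limma-voom with quality weights, which called 9 of the 10 (3 higher, 6 lower). Leaving out each library gave 0 to 4633 genes and 0 to 7 of the 10 (0 to 2 higher, 0 to 5 lower), the upper values without vehicle replicate 3. With 7 libraries, 4633 genes were called, 2378 with the GC correction and 2097 with GC and length, which left 4 of the 10 higher and 2 lower. DESeq2 and a minimum of 1 CPM each gave 1 higher, and the latter did not test TFF1. Leaving out each of the 7 gave 1 to 2 higher and 5 to 6 lower. With the GC correction it gave 1476 to 2638 genes, 2 to 4 of the 10 higher and 1 to 2 lower.

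Directions changed as follows, and the cause was not tested. With 8 libraries, KRT7 became 0.048 (GC) and 0.072 (GC and length), SPDEF 0.047 (GC and length), and KRT18 0.10 and AGR2 0.29 with quality weights. TFF1 became 0.48 by limma-voom, 0.30 without TMM, 3.4e-05 (GC), 0.026 (GC and length), 0.37 and 0.17 on log2(FPKM + 0.1) and log2(FPKM + 1), and 1.09 with quality weights. Leaving out libraries gave -0.49 to 0.091 for KRT18, -1.32 to 0.37 for AGR2 and -0.32 to 1.07 for TFF1, the highest without vehicle replicate 3. With 7 libraries, KRT7 became 0.13 (GC) and 0.11 (GC and length), KRT8 0.086 and 0.11, CLDN4 0.031 and 0.029, and KRT19 0.026 (GC). SPDEF with the GC correction ran from -0.039 to 0.017 without each library. DESeq2 gave no adjusted p for AGR2 and TFF1 with 8 libraries or for TFF1 with 7.

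Same-numbered libraries deviated from their group means with correlations from -0.057 to 0.197 over 8 libraries and -0.009 to 0.020 over 7. Such values cannot settle whether the numbers pair the libraries, which the labels do not state. A replicate block called 0 genes with 8 libraries, where TFF1 became 0.31, and 4093 with 7, where CLDN4 gained a call (-0.14, adjusted p = 0.0311). Without the scaling factors vehicle replicate 3 held 314 CPM of KRT7 and 940 CPM of KRT19. TFF1 is limited by depth, at 8 to 36 counts.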
